A study of Mus musculus with 44 samples.

Results

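Plasma cells of bone marrow were compared with plasma cells of spleen in the same 4 mice, which had been given tamoxifen at 24 weeks of age and were taken 90 days later. The cells had been sorted as CD138high B220- and lacked the YFP mark (YFP-, called Bulk PC in the labels). The comparison holds 8 of the 44 libraries of the series: 4 of marrow and 4 of spleen, from mice M2, M3, F12 and F15. They were picked by age, day, sort and organ alone, and organs were paired within a mouse. All mice of the series, controls of every comparison included, carried the genotype written as BEC-YFP and had received tamoxifen. The labels do not say which promoter drives the recombinase or how many cells went into a library. Cells without YFP are thus all CD138high B220- cells that did not carry the mark at sorting, whatever their age. For comparison, the same organ difference was taken in YFP+ cells (LLPC) of these 4 mice, in YFP- cells of 4 other mice given tamoxifen at 6 to 8 weeks and taken at day 90 (called young), and in YFP- cells of 24-week mice taken at day 5 (3 mice). Replicates are separate mice.

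Plasma cells are the end stage of B cell differentiation and devote most of their protein synthesis to secreted antibody. Spleen holds many recently formed plasma cells, and bone marrow is the organ best known for sustaining plasma cells over long periods, with help from stromal cells, eosinophils, megakaryocytes and other neighbours. Like nearly all nucleated cells, they display peptides on class I molecules, each made of a polymorphic heavy chain and the shared light chain beta-2 microglobulin. Class I genes respond to interferons and to NF-kB.

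Of 12457 genes tested, 28 passed (adjusted p under 0.05), which is 0.225% of them. They comprised 13 genes higher in marrow (0.104%) and 15 lower (0.120%). Levels below are in CPM, the deposited counts scaled to library size by TMM; immunoglobulin genes are absent from the table. Differences are log2 of marrow over spleen ± SE from a fit that compares the organs within each mouse. Over all genes the median difference was 0.01. Without pairing by mouse 2 genes passed (Slc7a4 higher, Hexim1 lower). The calls lean on particular mice: of the 28, 4 still passed without mouse M2 (Cyp4f18, Slc7a4, Prss34 and Mcpt8), 2 without M3 (Prss34 and Mcpt8), 14 without F12 and 18 without F15. Trim30a, Ogt, Mmp8, Kctd12, 9930017N22Rik and 4833438C02Rik passed in none of these 4 fits. In all 4 of these reduced fits all 28 genes kept the sign of their difference.

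Class I heavy chains made up 4 of the 15 lower genes: the classical chains H2-K1 and H2-D1 and the Qa-2 chains H2-Q6 and H2-Q7. This family was singled out after its values were seen. The promoters of these 4 genes share a stretch with an NF-kB box (the class I enhancer A) followed by an interferon response element, and they are printed here to show how alike the genes are. The stretches are 100 bases upstream of the RefSeq start (GRCm38.p6), read 5′ to 3′, with the box GGGGATTCCC and the element AGTTTCACTTC, as read from the H2-K1 window, in capitals. H2-K1 lies on the minus strand at chr17:34000389-34000488, and H2-D1 on the plus strand at chr17:35262893-35262992. H2-Q6 lies at chr17:35424647-35424746 and H2-Q7 at chr17:35438992-35439091, both on the plus strand.
H2-K1: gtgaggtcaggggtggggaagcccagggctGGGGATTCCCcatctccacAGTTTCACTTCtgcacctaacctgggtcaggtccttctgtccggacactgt
H2-D1: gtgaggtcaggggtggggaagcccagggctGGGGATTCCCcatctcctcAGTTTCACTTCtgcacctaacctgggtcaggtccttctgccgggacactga
H2-Q6: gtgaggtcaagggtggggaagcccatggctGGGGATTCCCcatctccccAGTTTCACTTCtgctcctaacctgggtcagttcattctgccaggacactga
H2-Q7: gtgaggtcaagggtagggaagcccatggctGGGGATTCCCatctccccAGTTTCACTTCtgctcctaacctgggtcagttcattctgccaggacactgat

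Over the 50 bases from the start of the response element, H2-Q6 and H2-Q7 were identical (50 of 50), and H2-K1 and H2-D1 matched at 48. H2-K1 matched H2-Q6 and H2-Q7 at 45 each, and H2-D1 matched each of them at 46. Upstream of these bases the printed H2-Q6 and H2-Q7 stretches differ, and H2-Q7 lacks a base after the box. Both strands of all 32851 RefSeq promoter windows of 300 bases (250 before to 50 after a start) were searched. The box GGGGATTCCC occurs in 0.107% of them, the element GAAGTGAAACT (the reverse strand of the one printed) in 0.0517%, and its looser form GAANNGAAA, which overlaps it, in 7.52%. Of the 28 genes that passed, 26 had a window. The box and the strict element were found in the windows of these 4 class I genes among them. Of other presentation genes searched, H2-T23 and B2m held none of the 3 motifs, and H2-Q4, which did not pass (1.13 CPM in marrow, 2.88 in spleen), held the strict element without the box. The looser element was found in 7 of the 26: the 4 class I genes that passed, Trim30a, Trim25 and Tmcc3. A gene counted if any of its windows held the element, so this number is not directly comparable with the 7.52% of single windows. A match describes the letters of the window and is not evidence of a bound site.

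The class I chains were lower in marrow in every mouse. H2-K1 stood at 807 CPM in marrow against 2064 in spleen of mouse M2, 1268 against 2105 in M3, 1362 against 2135 in F12, and 1656 against 2575 in F15. Every marrow library lay below every spleen library, which holds for 1.54% of all genes (-0.82 ± 0.14, adjusted p = 0.00455). H2-D1 read 904, 1942, 2463 and 2727 CPM in marrow of M2, M3, F12 and F15, against 2948, 3299, 2857 and 4264 in spleen. These 2 groups did not overlap either (-0.77 ± 0.17, adjusted p = 0.0467). In bulk samples, fewer cells of a type and less RNA per cell cannot be told apart.

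The Qa-2 chains showed the greater differences. H2-Q7 was at 40.6, 122, 173 and 228 CPM in the marrow of M2, M3, F12 and F15, and at 206, 309, 327 and 418 in their spleens (-1.29 ± 0.23, adjusted p = 0.00797). H2-Q6 was at 23.7, 34.4, 70.1 and 107 CPM in marrow against 77.8, 94.9, 121 and 191 in spleen (-1.14 ± 0.20, adjusted p = 0.00492). For both genes the organs overlapped across mice, yet each mouse's marrow was below its own spleen; a difference of one sign in all 4 mice, in this direction, holds for 7.95% of all genes. None of the 4 class I genes passed without M2 (adjusted p 0.0574 to 0.220) or without M3 (0.0727 to 0.162), though each kept its sign.

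Near-identical heavy-chain genes can split reads between them, so the 10 genes H2-K1, H2-D1 and all H2-Q genes in the table were also summed. The sum was 1783 CPM in marrow against 5305 in spleen of M2, 3376 against 5827 in M3, 4080 against 5459 in F12, and 4736 against 7477 in F15, a mean log2 difference of -0.86 ± 0.50 (SD, n = 4). It was -1.57 in M2, whose marrow library had the highest Jchain share of the 8 (46.2% of counts) and the lowest TMM factor (0.634). Without M2 the mean was -0.62. Leaving Jchain out of the totals gave -0.84; in that setting H2-D1 no longer passed (adjusted p = 0.052).

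Of the 16 heavy-chain genes of the K, D, Q, T and M groups that were tested, 4 passed, all lower in marrow, and 13 had a negative difference. Over all genes, 50.9% had a positive difference. Some of the 16 were near the floor, such as H2-M2 (15.4 CPM in F12 spleen, 0 in the other libraries) and H2-Q4 (1.13 CPM in marrow, 2.88 in spleen). The light chain B2m did not pass, at 6023 ± 1892 CPM in marrow and 6893 ± 1214 in spleen (SD, n = 4 each; -0.24 ± 0.20). Neither did H2-T23, which encodes Qa-1 (719 ± 231 against 884 ± 191, -0.31 ± 0.14), nor the peptide transporter subunit Tap1 (34.1 ± 20.2 against 47.8 ± 19.6, -0.49 ± 0.27). Nlrc5, the transactivator of class I genes, was at 2.92 ± 1.06 CPM in marrow and 6.08 ± 0.626 in spleen (-1.15 ± 0.46, adjusted p = 0.344). Of class II genes, neither H2-Ab1 (-0.26 ± 0.17) nor H2-Aa (-0.21 ± 0.30) passed, nor did Cd74, the invariant chain (0.43 ± 0.16). Markers of red pulp macrophages, cells of the spleen that clear old red cells, summed to 7.40 to 78.2 CPM in spleen and 0.102 to 13.2 in marrow; their part in the class I differences was not tested.

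**Figure D1:**
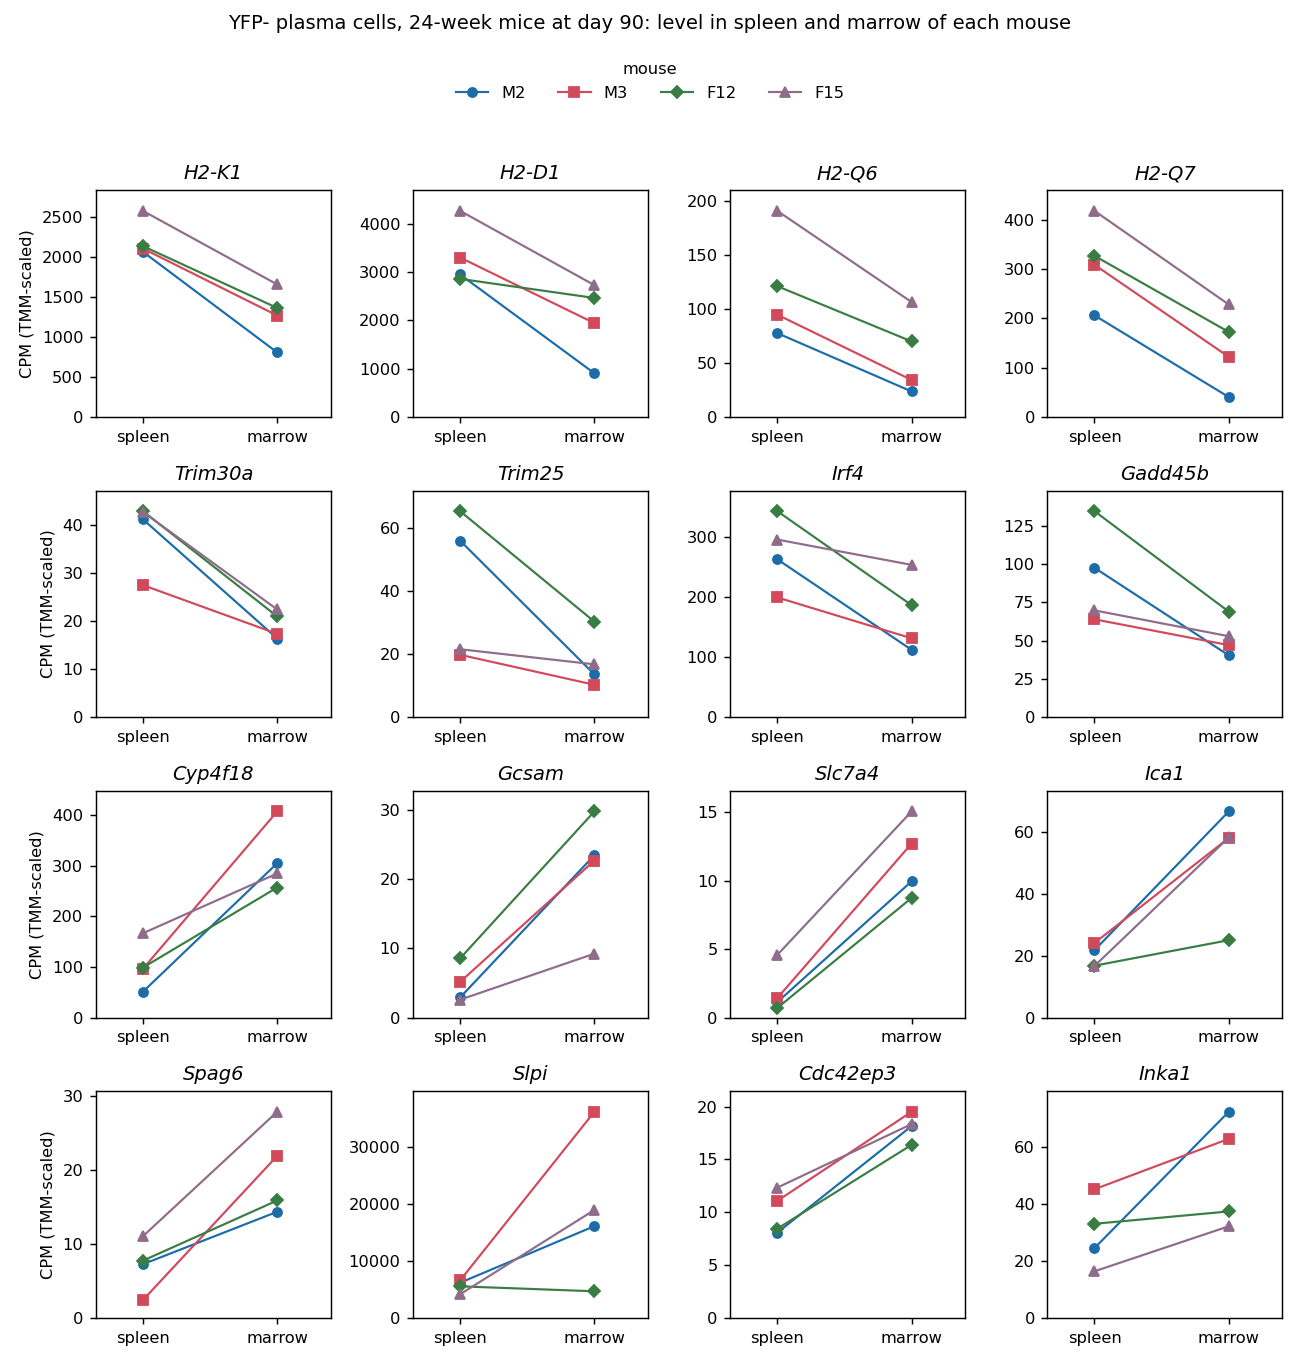
Level in spleen (left) and marrow (right) of each mouse, in TMM-scaled CPM on linear axes that start at 0, for 16 genes that passed. Each line joins the 2 organs of 1 mouse; the lines of the class I genes, Trim30a, Trim25, Irf4 and Gadd45b run down toward marrow in all 4 mice, and those of the other genes run up except Slpi in F12.

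The tripartite-motif genes Trim30a and Trim25 were also among the lower ones. Trim30a, an interferon-induced regulator of inflammatory signalling, was at 16.4, 17.4, 21.0 and 22.4 CPM in marrow of M2, M3, F12 and F15, and at 41.2, 27.5, 42.9 and 42.7 in spleen. The organs did not overlap (-1.0 ± 0.20, adjusted p = 0.0181), and close paralogs of Trim30a may share its reads. Trim25, a ubiquitin ligase of the antiviral RIG-I pathway, was at 13.6, 10.3, 30.3 and 16.8 CPM in marrow against 56.1, 19.8, 65.4 and 21.6 in spleen (-1.14 ± 0.24, adjusted p = 0.0359). It was lower in each mouse, by much in M2 and F12 and by little in F15. Of the 35 interferon-response genes tested, Trim30a passed, lower in marrow, and none was higher. In that list 26 were negative and 9 positive, with a median of -0.17 against 0.01 over all genes. Ifi27l2a (91.6 CPM against 209, -1.22 ± 0.42) and Isg15 (2.20 against 6.57, -1.50 ± 0.44) did not pass, and Bst2, Isg20, Irf7 and Psmb8 differed by at most 0.11.

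Irf4, the transcription factor that plasma cells need to form and to survive, was lower in marrow. Its level was 113, 132, 187 and 254 CPM in marrow of M2, M3, F12 and F15, and 264, 200, 344 and 296 in spleen. The difference was large in M2 and small in F15, and the organs overlapped across mice (-0.76 ± 0.15, adjusted p = 0.0162). Irf4 was the only one of 20 plasma cell identity genes to pass. Of the 20, 14 were negative, and the list median was -0.11. An unadjusted p under 0.05 was found for 7, all lower in marrow. Among all 12457 genes, 735 were lower at that threshold. Prdm1, the repressor that ends the B cell programme, was at 114 CPM in marrow and 143 in spleen (-0.28 ± 0.13, adjusted p = 0.432). Xbp1, the factor behind secretory capacity, was at 11711 and 9944 (0.26 ± 0.15), and Sdc1, which encodes CD138, at 494 and 384 (0.36 ± 0.30). The BCMA receptor Tnfrsf17 was at 481 and 483 CPM (0.01 ± 0.16). The identity list summed to 26074 to 27636 CPM in marrow and 23644 to 28571 in spleen.

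The other lower genes are on no list and were named after their values were seen. Gadd45b, a stress-inducible protein, was at 52.3 ± 12.2 CPM in marrow and 91.4 ± 32.2 in spleen (-0.76 ± 0.15, adjusted p = 0.0162). Mtpn, which encodes myotrophin, was even across mice, at 40.8 to 49.3 CPM in marrow and 67.3 to 93.1 in spleen (-0.70 ± 0.13, adjusted p = 0.00927). Hexim1, an inhibitor of the elongation factor P-TEFb, was at 1.38 to 3.48 CPM in marrow and 6.11 to 19.0 in spleen (-2.14 ± 0.40, adjusted p = 0.0106). Ogt, the O-GlcNAc transferase, was at 65.6 ± 9.29 against 104 ± 25.1 CPM (-0.64 ± 0.14, adjusted p = 0.0383). The remaining lower genes were the ubiquitin-conjugating enzyme Ube2z (12.8 ± 0.733 against 26.1 ± 8.84 CPM), Kctd12 (4.99 ± 0.84 against 17.3 ± 8.71), Tmcc3 (7.31 ± 3.07 against 16.7 ± 5.28) and the gene model 9930017N22Rik (2.47 ± 1.19 against 12.1 ± 9.04). All 15 lower genes were below spleen in each of the 4 mice, which holds for 7.95% of all genes. For 9 of them the organs did not overlap (1.54% of all genes). The 15 genes passed on these same values, so this adds no support.

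Among the genes higher in marrow was Cyp4f18, a cytochrome P450 of the family that oxidises leukotriene B4. Its level was 305, 407, 257 and 285 CPM in marrow of M2, M3, F12 and F15, against 51.0, 96.2, 98.8 and 166 in spleen. The lowest marrow library was above the highest spleen library, which holds for 1.11% of all genes (1.60 ± 0.25, adjusted p = 0.00237). Without M3 it did not pass (adjusted p = 0.0727), and the same holds for Slc7a4, below, at the same value. Slc7a4, a member of the cationic amino acid transporter family, was at 9.96, 12.7, 8.74 and 15.1 CPM in marrow and 1.13, 1.43, 0.703 and 4.58 in spleen (2.74 ± 0.44, adjusted p = 0.00253). It was the only gene higher in marrow that also passed without the pairing (adjusted p = 0.0199).

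Gcsam, a germinal-centre signalling adaptor that slows lymphocyte motility, was at 23.4, 22.7, 29.7 and 9.22 CPM in marrow and 2.90, 5.15, 8.54 and 2.58 in spleen. Marrow was above spleen throughout (2.24 ± 0.39, adjusted p = 0.00492). Ica1, an autoantigen linked to secretory vesicles, was at 66.6, 58.0, 25 and 58.2 CPM in marrow against 21.8, 24.1, 16.8 and 16.7 in spleen (1.32 ± 0.25, adjusted p = 0.0162). F12 had the smallest gap. Spag6, an axonemal protein of sperm flagella and cilia with a close paralog, was at 14.4, 21.9, 15.9 and 27.9 CPM against 7.26, 2.41, 7.74 and 11.0 (1.57 ± 0.31, adjusted p = 0.0162).

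Slpi, a secreted inhibitor of serine proteases and among the most abundant transcripts here, was at 16088, 36146, 4667 and 18921 CPM in marrow of M2, M3, F12 and F15, and at 6167, 6577, 5538 and 4144 in spleen. It was higher in marrow in 3 of 4 mice and slightly lower in F12 (1.53 ± 0.33, adjusted p = 0.0383). Prg2, the granule major basic protein that plasma cells also express, had the same outline without passing: 2007, 2230, 617 and 1892 CPM in marrow against 949, 969, 826 and 886 in spleen (0.78 ± 0.22, adjusted p = 0.166). Of the 13 higher genes, 10 were above spleen in each of the 4 mice (6.32% of all genes) and 8 did not overlap (1.11% of all genes). All 13 passed on these same values, so this adds no support either. Other marrow-higher genes, named after their values were seen, were Cdc42ep3, an effector of the GTPase Cdc42 (18.1 ± 1.29 against 9.98 ± 2.06 CPM), the kinase inhibitor Inka1 (51.1 ± 19.4 against 29.7 ± 12.3), the gene model 4833438C02Rik (21.1 ± 2.37 against 11.2 ± 3.52) and the G protein subunit Gna14. Gna14 was low, with 45, 26, 10 and 42 counts in marrow of M2, M3, F12 and F15 and 0, 3, 0 and 9 in spleen.

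Transcripts of other blood cells differed between the organs too. Prss34 and Mcpt8, proteases of basophils, were present in the marrow of 2 mice and close to absent elsewhere. Prss34 had 1906 counts in marrow of M3 and 1465 in that of F15, 3 in F12 and 0 in M2, and 1 count over the 4 spleens (adjusted p = 1.71e-09). Mcpt8 had 700 and 465 counts in the marrow of M3 and F15 and 0 in the other 6 libraries (adjusted p = 0.000732). No fold is given, since 2 of the 4 marrow libraries were at or near 0. The high-affinity IgE receptor chain Fcer1a (10.7 and 8.30 CPM) and the mast cell protease Cpa3 (24.6 and 8.92 CPM) were found in the same 2 libraries and did not pass. Epx and Siglecf, which define eosinophils, were at 0 in all marrow libraries. Without M3 and F15 together neither protease passed. Both calls were also lost with DESeq2's Wald test (adjusted p = 0.222 for Prss34 and 0.527 for Mcpt8), with limma-voom (0.0783 and 0.162) and without the pairing (0.299 and 0.494).

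Mmp8, a collagenase of neutrophil granules, had 155, 52, 39 and 134 counts in marrow of M2, M3, F12 and F15, and 0, 0, 0 and 2 in spleen (adjusted p = 0.0395). The 18 neutrophil and precursor markers summed to 135 to 795 CPM in marrow (median 570) and 9.11 to 253 in spleen (median 72.7); Mmp8 was the only one of 16 tested to pass. Erythroid markers summed to 1150 and 793 CPM in marrow of M2 and M3 but to 3.72 and 18 in F12 and F15, against 2.21 to 213 in spleen. The sample titles of M2 and M3 also end in another date-like number than those of F12 and F15. That ending cannot be told apart from the M and F prefixes, and its part was not tested. Monocyte and macrophage markers summed to 197 to 1126 CPM in marrow and 115 to 675 in spleen, most of it Lyz2, but 10 of the 12 were lower in marrow (median -1.42) and none passed. T cell markers summed to 12.2 to 19.0 and 10.1 to 34.5, with Cd3e at 0 in all marrow libraries. Pax5, which defines B cells, was at 0 in 7 libraries. Sums of different marker lists do not measure shares of cells, and the part of other cells in the organ differences was not tested.

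**Figure D2:**
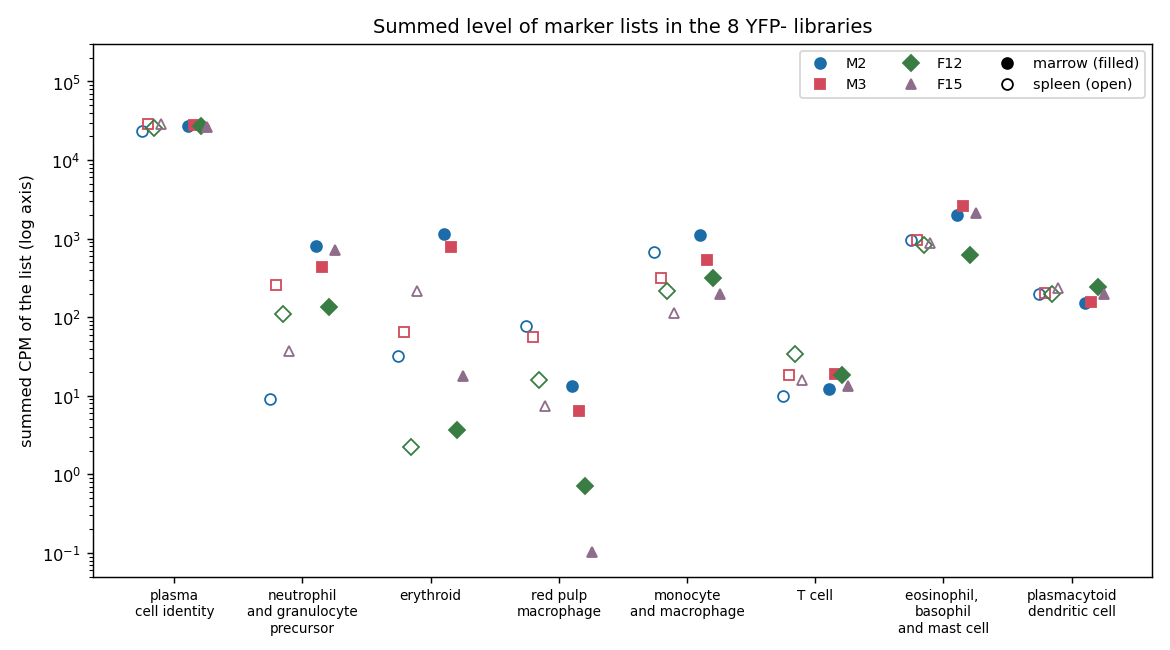
Summed CPM of 8 marker lists in each library, on a log axis, with marrow filled, spleen open and 1 colour and shape per mouse. The plasma cell list is level across the 8 libraries, neutrophil markers are higher in marrow of each mouse, red pulp macrophage markers are higher in spleen of each mouse, and erythroid markers reach 1150 CPM in marrow of M2.

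Receptors that position plasma cells showed no gene that passed among 35 tested (21 negative, median -0.20). Cxcr4, the receptor for the marrow chemokine CXCL12, was at 13.2, 14, 7.54 and 32.4 CPM in marrow of M2, M3, F12 and F15 and 12.4, 24.6, 6.43 and 39.9 in spleen, differing more between mice than between organs (-0.25 ± 0.26). Cxcr3 (58.9 CPM in marrow against 38.6 in spleen, 0.55 ± 0.38), Ccr9 (5.19 against 3.75) and Ccr10 (119 against 102) did not pass. Of these, Cxcr3 was above spleen in each mouse, which holds for 6.32% of all genes. S1pr1, the sphingosine receptor for tissue exit, and Klf2, the factor that drives it, had lower means in marrow (4.30 against 9.11 CPM, -1.60 ± 0.70, and 26.4 against 53.9, -1.11 ± 0.37; adjusted p = 0.394 and 0.235). The adhesion receptors Cd44 (113 against 171 CPM, -0.60 ± 0.17, adjusted p = 0.142) and Itgal (96.1 against 144, -0.58 ± 0.19, adjusted p = 0.23) did not pass. Both were below spleen in each mouse, which holds for 7.95% of all genes.

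The marrow library of F12 stood apart in several of these genes. It held 164 CPM of Itgb7, the beta chain of the gut-homing integrin, against 28.6 to 47.6 in the other marrow libraries. Ccr10, a receptor of mucosal IgA plasma cells, was at 258 CPM in F12 marrow and 187 in F12 spleen, against 41.9 to 88.8 in the other 6 libraries. Cd74 was at 10341 CPM in F12 marrow and 22235 to 24418 in the other 3. Slpi and Prg2, above, were lowest there among the 4 marrow libraries.

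None of the 21 survival receptors tested passed (median -0.08), nor any of the 22 apoptosis regulators (median -0.09). The survival protein Mcl1, on which plasma cells depend, was below spleen in each mouse (166 ± 20.1 against 233 ± 45.3 CPM, -0.47 ± 0.14, adjusted p = 0.166), as was Bcl2 (24.7 against 36.8, -0.57 ± 0.20, adjusted p = 0.271). A lower level in all 4 mice holds for 7.95% of all genes. Mcl1 passed with DESeq2's Wald test (adjusted p = 0.0488). Cd28 (204 against 222 CPM), Cd93 (42.6 against 31.5), Slamf6 (135 against 113) and Tigit (51.0 against 39.0) did not pass. Of these, Cd93 and Slamf6 were above spleen in each mouse, which holds for 6.32% of all genes.

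The other programme lists had no gene that passed. Among the 19 iron and heme genes 15 were positive, with a median of 0.20 and list medians above 0 in all 4 mice. The metallothionein Mt1, singled out after its values were seen, was at 219 ± 54.9 CPM in marrow and 86.1 ± 23.5 in spleen (1.35 ± 0.33, adjusted p = 0.0777). Its marrow libraries lay above its spleen libraries without overlap, which holds for 1.11% of all genes. Immediate early and heat shock genes were negative in 19 of 25 (median -0.33), with list medians below 0 in all 4 mice. Mitochondrially encoded transcripts were negative in 11 of 13 (median -0.34), with list medians of -0.42 in M2, 0.05 in M3, -0.64 in F12 and 0.01 in F15. They took 0.979 to 1.05% of all counts, Jchain included, in marrow libraries and 1.13 to 2.17% in spleen libraries, without overlap. On the TMM scale their sums did overlap, at 8691 to 14183 CPM in marrow and 10579 to 20151 in spleen. In M3 the marrow sum was the higher one (12339 against 11791 CPM). Fos (827 against 1031 CPM) and Jun (149 against 124) varied more between mice than between organs. Proliferation genes had a median of -0.24 that hid opposite mice, -1.04 in M3 and 1.12 in F15; Mki67 was at 29.2 and 45.8 CPM. Ribosomal protein genes ran from -0.61 in F12 to 0.92 in F15. ER folding and secretion genes were level (median -0.01 over 38), with Hspa5, the ER chaperone BiP, among them.

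**Figure D3:**
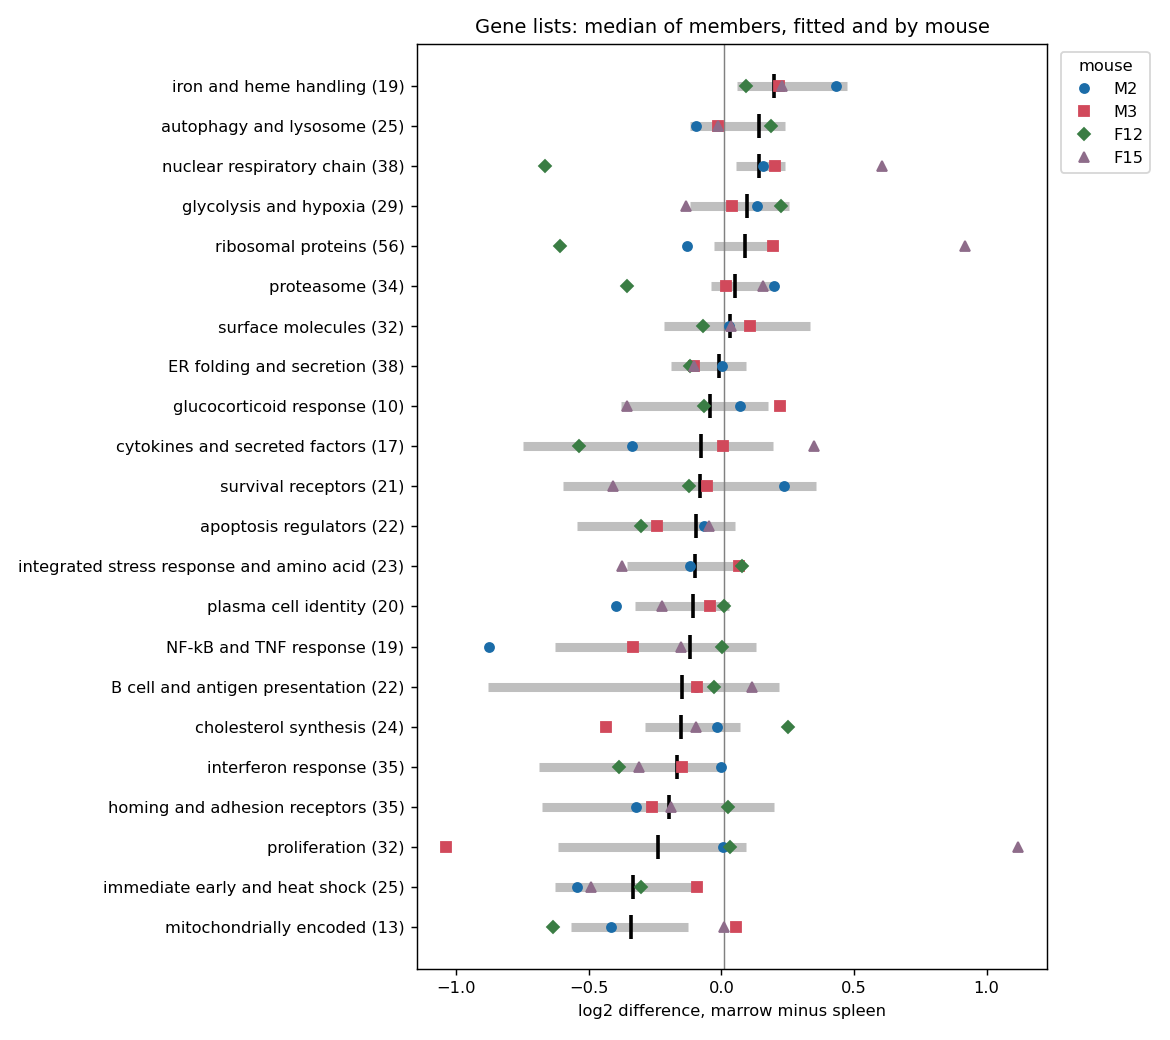
Median log2 difference (marrow minus spleen) of the members of 22 gene lists, with the number tested in brackets. Black ticks are the medians of fitted differences, grey bars their middle 50%, symbols the medians within each mouse, and the vertical line the median of all genes, 0.01; list medians lie between -0.34 and 0.20, and those of proliferation genes run from -1.04 in M3 to 1.12 in F15.

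The same organ comparison in other cells shows which of the 28 genes recur. In young mice, which are independent of the 4 above, 26 genes passed (0.209%; 0.136% higher and 0.0722% lower), and 5 of the 28 were among them with the same sign: Gcsam, Spag6 and Slpi higher and H2-Q6 and H2-Q7 lower. Of the 13 higher genes 12 had the same sign there, and of the 15 lower 13, where 48.2% and 51.8% of all genes had those signs. Of the class I genes, H2-K1 was at 1290 ± 175 CPM in young marrow against 1966 ± 232 in young spleen (-0.61 ± 0.14, adjusted p = 0.0565), and H2-D1 at 2083 ± 262 against 3487 ± 68.7 (-0.75 ± 0.17, adjusted p = 0.0565). H2-Q7 was at 124 ± 38.9 against 259 ± 64.3 CPM (-1.09 ± 0.23, adjusted p = 0.0315). Slpi was at 18506 ± 8073 against 3325 ± 1008 (2.42 ± 0.34, adjusted p = 0.000861). Irf4 did not pass in young mice (180 ± 57.1 against 171 ± 48.0 CPM, 0.06 ± 0.15), nor did Trim30a (-0.08).

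A test of the difference between the 2 ages passed for 1 gene, Prss34 (0.00803%, adjusted p = 0.00146), whose young libraries held at most 0.488 CPM. It did not pass for Irf4 (adjusted p = 0.694), Trim30a (0.798) or the 4 class I genes (0.952 for H2-K1 to 0.999 for H2-D1), so no age difference was shown for them.

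In YFP+ cells of the same 4 mice 66 genes passed (0.530%). Gcsam, Slpi and H2-Q7 were among them with the same sign, and 10 of the 13 higher and 12 of the 15 lower genes shared the sign. H2-K1 was at 1275 ± 306 CPM in YFP+ marrow and 1860 ± 388 in YFP+ spleen (-0.56 ± 0.14, adjusted p = 0.0602), and H2-Q7 at 116 ± 69.5 and 239 ± 118 (-1.11 ± 0.23, adjusted p = 0.0142). Spag6 was high in both organs of YFP+ cells (55.9 ± 16.0 and 45.4 ± 7.26 CPM, 0.26 ± 0.28), and Prss34 was at or near 0 in all of them. These libraries come from the mice of the main comparison and are no independent repeat.

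The organ difference itself differed between YFP- and YFP+ cells for 2 genes (0.0161%). Dpp4, the surface peptidase CD26, named after its values were seen, was close in the 2 organs of YFP- cells (6.01 ± 3.18 CPM in marrow, 6.13 ± 3.81 in spleen) but was at 0.419 ± 0.670 in YFP+ marrow and 7.57 ± 4.27 in YFP+ spleen (adjusted p = 0.031). Itgam, which encodes the integrin chain CD11b of myeloid cells, was at 6.64 ± 4.65 CPM in YFP- marrow and 21.2 ± 17.9 in YFP- spleen, against 1.99 ± 1.49 and 0.247 ± 0.121 in YFP+ cells (adjusted p = 0.031). Red pulp macrophage markers were also higher in YFP- spleen of each mouse, and their part in this was not tested.

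At day 5, 6 genes passed (0.0482%; 0.0321% higher), and Prss34, Mcpt8 and Cyp4f18 were among them with the same sign. Prss34 ran from 0.290 to 2236 CPM over the 3 marrow libraries. Of the 13 higher genes 11 shared the sign, and of the 15 lower genes 13. Those signs were held by 52.2% and 47.8% of all genes. H2-Q7 was at 188 ± 65.3 CPM in marrow and 353 ± 40.7 in spleen (-0.99 ± 0.26, adjusted p = 0.0698), H2-K1 at 1705 ± 389 and 2250 ± 232 (-0.43 ± 0.16, adjusted p = 0.114). The test of day 90 against day 5 passed for 0 genes with edgeR (smallest adjusted p = 0.289), although 1541 had an unadjusted p under 0.05; DESeq2's Wald test passed 81.

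**Figure D4:**
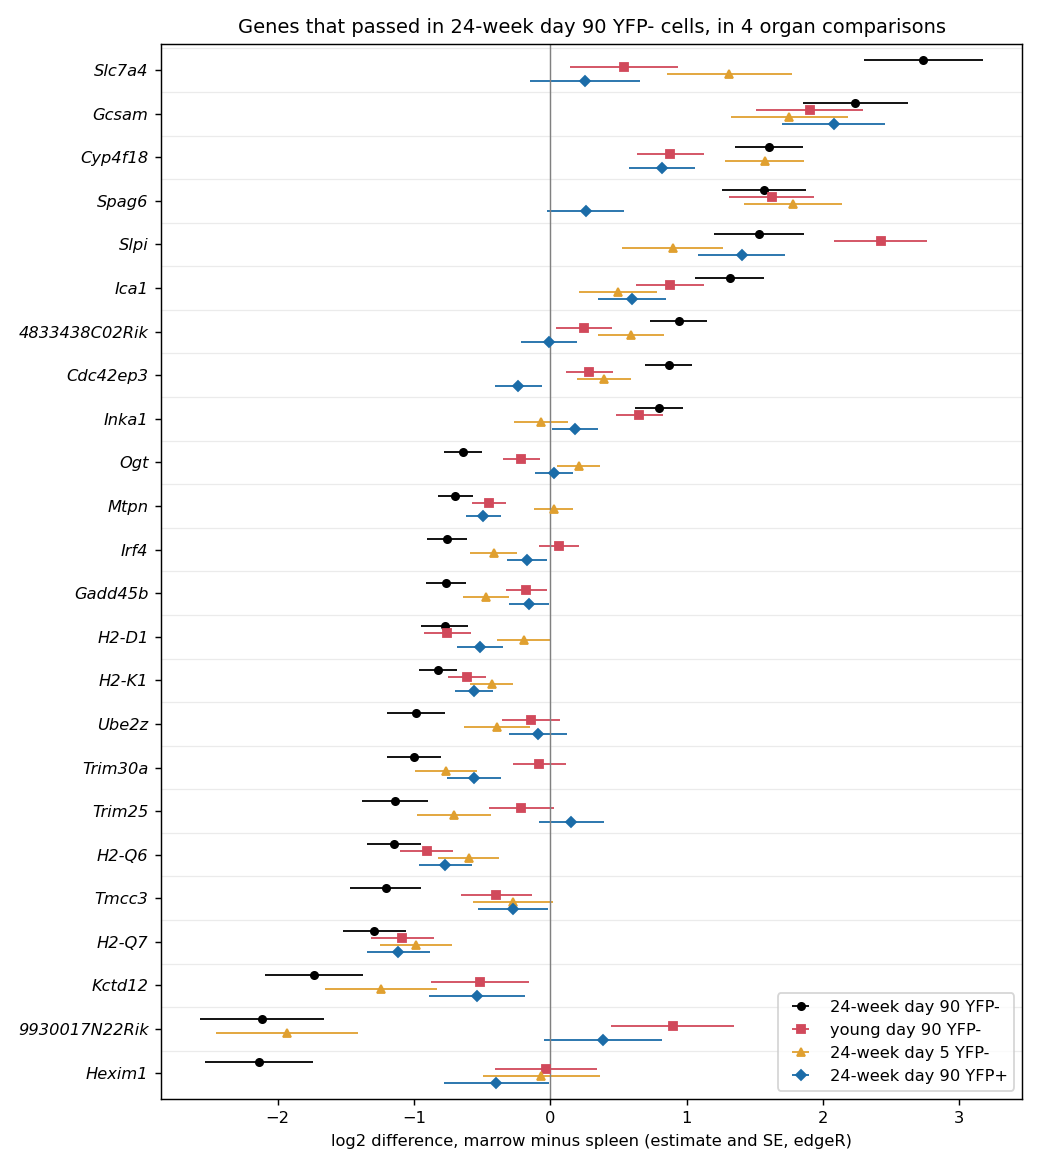
Log2 difference (marrow minus spleen; estimate and SE from edgeR) of 24 genes that passed in 24-week day 90 YFP- cells, in 4 organ comparisons told apart by colour and shape. The class I genes lie left of 0 in all 4 comparisons and Gcsam, Slpi and Cyp4f18 right of it, while Irf4 and Hexim1 lie within 0.06 of 0 in young mice; genes whose spleen libraries are at or near 0 are left out.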

How the data were processed

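Libraries were made with SMART-Seq v4 and Nextera XT, per the labels. Tools listed in the submitters' processing notes are DESeq2 1.26.0, STAR 2.6.1b and RSEM 1.3.1; the builds listed are GRCm38 and GRCm39, and which one the counts rest on is not given in the sources used here. The authors deposited expected counts per gene without immunoglobulin genes (3.1% not whole; rounded here). The 8 libraries hold 7703596 to 12663103 counts, of which Jchain takes 24.4 to 46.2%.

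One edgeR 4.0.16 quasi-likelihood fit (R 4.3.3; TMM; filterByExpr, minimum count 10; robust) of 43 libraries had mouse as a block and organ-and-sort terms within each cohort (21 residual degrees of freedom). Contrasts were adjusted by Benjamini-Hochberg over 12457 genes, threshold 0.05. In 1 day-5 marrow library title and cell type label conflict, and it was left out. Deviations from group means correlated weakly within a mouse (r 0.11 to 0.30 across genes) and at -0.33 to 0.25 between mice (median -0.08). The ranges overlap: F12 marrow followed F15 spleen (0.25) more closely than its own spleen (0.18). M3 spleen followed M2 marrow (0.14) more closely than M3 marrow (0.11). Centring on group means ties the between-mouse values to the same-mouse ones. The 2 libraries of a mouse come from the same animal. No 2 of the 8 libraries were identical. The rule for named genes took calls of at least 2-fold with 20 CPM or more in the higher organ, up to 15 each way. These were filled up to 5 each way from 5 CPM, and list members were added. Uninformative symbols, Y-linked genes and Xist were outside the rule. Genes outside it, such as Slc7a4, the class I family and interferon genes that did not pass, were named after their values were seen. Members and lists were chosen with earlier results of these data known. The fit was tested on simulated data. DESeq2 1.42.0, limma 3.58.1 (voom), scalings, filters and left-out mice were alternatives.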

Additional observations from a re-analysis of the deposited data

Results flagged for a closer look

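Within a group of 4 libraries, a value was noted when its gap to the nearest library was large beside the whole range (Dixon's 95% critical value for 4 samples). Of 149 groups looked at, 12 were noted; chance alone flags about 1 in 20 groups, and values within a library are not independent. F12 accounts for 6. In its marrow, Itgb7 was at 164 CPM (others 28.6 to 47.6), Klf2 at 49.1 (16.4 to 21.7), Itga4 at 86.6 (56.4 to 61.2) and Cd74 at 10341 (22235 to 24418). In its spleen, Ccr10 was at 187 CPM (67.0 to 81.7) and Tmcc3 at 24.5 (13.3 to 14.8).

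The spleen of F15 was highest in H2-K1 at 2575 CPM (2064 to 2135 in the others), in the summed plasmacytoid dendritic cell markers at 236 CPM (195 to 201) and in Mmp8 at 0.235 CPM (others 0). Its marrow was highest in megakaryocyte and platelet markers at 1.74 CPM (0.146 to 0.402). The spleen of M3 was lowest in Trim30a at 27.5 CPM (41.2 to 42.9) and alone in Prss34 at 0.110 CPM (others 0), which is 1 count.

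A difference between groups passed its own test for 3 genes. The organ difference of YFP- cells differed from that of YFP+ cells for Dpp4 (adjusted p = 0.031) and Itgam (adjusted p = 0.031). That of 24-week mice differed from that of young mice for Prss34 (adjusted p = 0.00146), which rests on the marrow of M3 and F15.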

How the results depend on the processing

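All 28 genes kept their sign in each alternative that gave them a value, save Mcpt8 without M3 and F15, where no count remains. The count of genes passing, 28 here, was 2 without the replicate block (both among the 28), 8 in the 8 compared libraries alone (4 of the 28), 141 with no filter (24 of the 28; 68 higher and 73 lower) and 162 with DESeq2's Wald test (26 of the 28, all but Prss34 and Mcpt8; 72 higher and 90 lower). It was 28 with DESeq2's size factors, 29 with the stricter filter and 29 with limma-voom (23 of the 28). Leaving out 1 mouse at a time gave 2 to 25. Of 2 settings chosen after seeing the data, leaving out Jchain gave 27 (H2-D1 was lost), and leaving out M3 and F15 together gave 104 (14 of the 28). M-prefixed and F-prefixed mice are given as values per mouse only.

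For the difference between YFP- and YFP+ cells, 2 genes passed; the count was 0 without the replicate block, 98 with no filter, 83 with DESeq2's Wald test, 4 without M3 and F15, and 0 to 1 without 1 mouse. For 24-week against young mice, 1 passed; it was 0 without the block, 54 with no filter, 19 with the Wald test and 7 without M3 and F15. For day 90 against day 5, 0 passed (smallest adjusted p = 0.289), but 384 with no filter, 81 with the Wald test and 1 without M3 and F15. In young mice 26 passed, 0 without the block, 136 with no filter, 75 with the Wald test and 22 to 44 with 1 of the 24-week mice left out. The causes were not tested.

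Over named genes and alternatives, 666 values stayed on their side of the threshold, 147 calls were lost and 3 were gained: Klf2 with no filter (adjusted p = 0.0032), Mcl1 with the Wald test and Tnfrsf13b without M3 and F15 (0.0485). Of 416 list medians, 33 moved beyond their SD over mice. Depth limits the low genes: Gna14 rests on 10 to 45 counts in marrow.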
